A study of Homo sapiens with 6 samples.

Results

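Non-homologous end joining reseals broken chromosomes by holding and ligating their ends, and a linked signalling branch marks the chromatin around each break and recruits repair proteins. Transcripts of both were examined on GeneChip arrays of MDA-MB-231, a human cell line from a triple-negative breast cancer. The gene set was defined by name: XRCC4, XRCC5, XRCC6, LIG4, PRKDC, DCLRE1C and NHEJ1 of end joining, and MDC1, RNF168 and TP53BP1 of break signalling. Of these 10 genes, 6 had a probe set under their symbol among the 14884 genes that could be tested. The symbols LIG4, PRKDC, NHEJ1 and RNF168 had no probe set in the annotation used here, so these 4 genes were not analysed. MDC1 was read by 8 probe sets and each of the other 5 genes by 1.

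The arrays came from control cells and from NR1D1 KO cells, 3 arrays each, and the cells of all 6 arrays had been kept for 72 h with 200 µM hydrogen peroxide, an oxidant that damages DNA. NR1D1 encodes REV-ERBα, a heme-binding nuclear receptor that represses transcription and is part of the circadian clock. The comparison asks which transcripts differ with the knockout under oxidative stress, and without untreated arrays it cannot say whether a difference preceded the peroxide. The labels do not say how the knockout was made, whether the cells are 1 clone or a pool, or what the control cells carry, and although the titles call the arrays biological replicates, nothing says that they came from separate cultures. The p-values therefore cover the spread seen among the 6 arrays, part of which may be technical.

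In the end joining reaction, the ring formed by XRCC5 (Ku80) and XRCC6 (Ku70) slides onto a broken end and draws in the catalytic subunit of DNA-dependent protein kinase, the product of PRKDC. DCLRE1C (Artemis) trims ends that cannot be joined directly, and XRCC4 holds and stabilises the ligase LIG4, with NHEJ1 (XLF) as a partner. At the chromatin, MDC1 binds phosphorylated histone H2AX and gathers ubiquitin ligases, among them RNF168, whose mark is read by TP53BP1 (53BP1), a protein that protects ends from resection and favours end joining.

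XRCC4 and MDC1 were higher in knockout cells, and the other 4 measured genes did not pass the test. Both rises were about 1.5-fold, and they lie at different steps, XRCC4 at ligation and MDC1 at the chromatin mark. These 2 of 6 genes compare with 9.49% of all genes tested that passed the limma test at an adjusted p of 0.05 in either direction, and with 4.74% that passed as higher. The median log2 change of the 6 genes was 0.19, with 5 above 0 and 1 below, against a median of 0.0039 over all genes. All values are deposited log2 intensities, read as log2 from their range, and a fold is 2 to the power of a log2 difference. In bulk RNA, fewer cells expressing a gene and less RNA per cell cannot be told apart.

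The stretches of DNA in front of the 2 genes that rose are shown because one of them is shared with a neighbouring gene whose array values are given further below. RefSeq places the start of XRCC4 on the plus strand and that of TMEM167A, a small membrane protein gene, on the minus strand, with 152 bases between the starts. That interval (chr5:83077395-83077546, GRCh38.p14, plus strand) and the 250 bases upstream of the start of MDC1 (chr6:30717282-30717531, GRCh38.p14, minus strand) read 5′ to 3′ as follows, with motif matches in capitals.
XRCC4 and TMEM167A interval: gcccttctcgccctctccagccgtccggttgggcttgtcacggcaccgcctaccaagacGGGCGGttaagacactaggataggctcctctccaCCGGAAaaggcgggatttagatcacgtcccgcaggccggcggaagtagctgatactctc
MDC1 upstream: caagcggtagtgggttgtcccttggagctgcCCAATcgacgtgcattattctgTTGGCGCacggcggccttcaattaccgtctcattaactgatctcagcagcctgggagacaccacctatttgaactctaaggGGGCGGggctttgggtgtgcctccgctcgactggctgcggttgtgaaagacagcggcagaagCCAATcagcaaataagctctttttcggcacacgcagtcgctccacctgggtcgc
Both strands were searched for 6 motifs: AGGTCA, the half-site of REV-ERB and ROR receptors, TTGGCGC and GGCGGGAA (E2F), CCAAT (NF-Y), CCGGAA (ETS factors) and GGGCGG (SP and KLF factors). No match overlapped another.

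The receptor half-site AGGTCA was in neither window. It was present in 7.74% of the 35116 windows of 152 bases and 12.1% of those of 250 bases that end at an annotated start. The XRCC4 interval held 1 match to GGGCGG (36.9% of windows of its length) and 1 to CCGGAA (11.2%). The MDC1 window held 1 match to TTGGCGC (2.56%), 1 to GGGCGG (42.6%) and 2 to CCAAT (32% of windows with any match). The motifs were chosen with the sequences in view, so these shares do not measure how unusual a match is. A match of letters is a description of these windows and not a measured binding site.

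XRCC4, the scaffold of the ligation step, measured 7.24, 7.64 and 7.42 in control replicates 1 to 3 and 7.80, 8.19 and 8.26 in knockout replicates 1 to 3 (log2). The groups did not overlap, but knockout replicate 1 stood only 0.159 above control replicate 2. The group means were 7.43 ± 0.199 and 8.08 ± 0.247 (SD, n = 3 each), a 1.57-fold rise with a 95% interval of 1.24 to 1.97 (limma, adjusted p = 0.0296). XRCC4 had the widest spread of the 6 genes, with a standard error of 0.146 against a median of 0.101 over all genes. The limma call was lost on leaving out control replicate 1 (adjusted p = 0.0984), control replicate 3 (0.0889), knockout replicate 2 (0.099) or knockout replicate 3 (0.0886), and kept on leaving out either of the other arrays. Its size stayed between 0.55 and 0.79 on the log2 scale when any 1 array was left out, and only 2.96% of genes had a larger change in either direction.

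**Figure D1:**
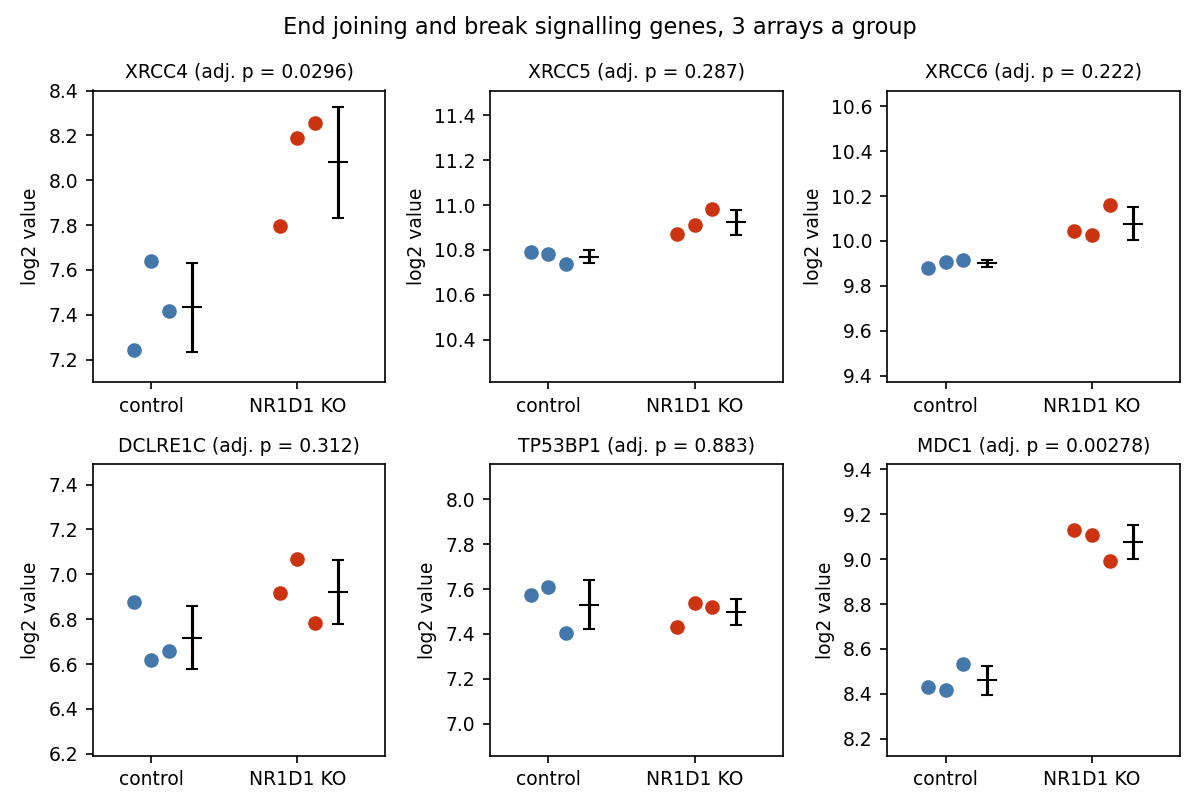
Log2 values of the 6 measured genes in the 3 control (blue) and 3 NR1D1 KO arrays (red), with the mean and SD beside each group; every axis spans the same range of log2 units. XRCC4 and MDC1 have red points above all blue ones by 0.159 and 0.46, while those of DCLRE1C and TP53BP1 overlap.

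The Ku genes measured slightly higher in the knockout without passing the test. XRCC5 read 10.79, 10.78 and 10.74 in control and 10.87, 10.91 and 10.98 in knockout arrays. XRCC6 read 9.88, 9.91 and 9.91 in control and 10.04, 10.03 and 10.16 in knockout arrays. All 3 knockout arrays were above all 3 control arrays for each gene, by a gap of 0.08 for XRCC5 and 0.115 for XRCC6. With XRCC4 and MDC1 this made 4 of 6 genes whose groups did not overlap in the direction of a rise, which held for 15.1% of all genes.

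The difference was 0.15 on the log2 scale for XRCC5, with a 95% interval of -0.022 to 0.33 (limma, adjusted p = 0.287). It was 0.18 for XRCC6, with an interval of -0.0012 to 0.36 (limma, adjusted p = 0.222). The intervals leave room for rises of up to 1.26-fold and 1.28-fold. The 2 Ku proteins are known to be stable only as a pair, so the difference between their transcripts within each array was also taken. XRCC5 minus XRCC6 was 0.87 ± 0.0449 in control and 0.85 ± 0.0336 in knockout arrays (SD, n = 3 each), a shift of -0.025 (exact two-sided permutation test, p = 0.7, and 0.7 after adjustment over the 2 pairs measured).

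DCLRE1C, the nuclease gene, measured 6.88, 6.62 and 6.66 in control and 6.92, 7.07 and 6.78 in knockout arrays. Control replicate 1 lay above knockout replicate 3, so the groups overlapped. The difference of 0.20 on the log2 scale had a 95% interval of -0.042 to 0.45 (limma, adjusted p = 0.312).

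MDC1, the adaptor at phosphorylated H2AX, measured 8.43, 8.42 and 8.53 in control and 9.13, 9.11 and 8.99 in knockout arrays at its brightest probe set. Every knockout array was at least 0.46 above every control array, the widest gap among the 6 genes. The means were 8.46 ± 0.0629 and 9.08 ± 0.0751 (SD, n = 3 each), a 1.53-fold rise with a 95% interval of 1.35 to 1.75 (limma, adjusted p = 0.00278). The call held without any 1 of the 6 arrays, with adjusted p from 0.00805 to 0.016. The 8 probe sets of MDC1 differed by at most 0.201 within an array, and all 8 passed when fitted as single probe sets, with log2 changes of 0.61 to 0.64. Only 6 of the 8 held distinct values, so they are repeated readings of 1 transcript and not independent evidence.

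TP53BP1, which reads the mark downstream of MDC1, did not pass the test. It measured 7.57, 7.61 and 7.40 in control and 7.43, 7.54 and 7.52 in knockout arrays, with overlapping groups. The difference was -0.032 on the log2 scale, with a 95% interval of -0.23 to 0.17 (limma, adjusted p = 0.883), and its sign turned when control replicate 2 (0.0086) or knockout replicate 1 (0.0013) was left out or arrays were weighted (0.0012). MDC1 minus TP53BP1 within an array was 0.86, 0.81 and 1.13 in control and 1.70, 1.57 and 1.47 in knockout arrays. This difference grew by 0.65 (exact two-sided permutation test, p = 0.1, the smallest that 3 against 3 arrays can give, and 0.2 after adjustment over the 2 pairs). Of the 6 pairs of partner genes planned, 4 involve a gene without a named probe set.

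Neither of the measured coding genes next to XRCC4 on chromosome 5 passed the test. TMEM167A, at the other end of the shared interval, measured 5.66, 5.79 and 5.83 in control and 5.56, 5.67 and 5.88 in knockout arrays. These groups overlapped, and the difference was -0.055 on the log2 scale with a 95% interval of -0.29 to 0.18 (limma, adjusted p = 0.813). Its level was close to the array medians of 5.18 to 5.22, and the floor of an array can make the change of a dim gene too small. XRCC4 minus TMEM167A within an array ran from 1.59 to 1.85 in control and from 2.23 to 2.52 in knockout arrays. This pair was chosen after its values were seen and is given without a test. VCAN, the versican gene on the other side, differed by 0.085 at its brighter probe set and by -0.26 at the dimmer one, and did not pass in limma (adjusted p = 0.654). It read only 3.35 in control and 3.44 in knockout arrays, far below the array medians, so this reading says little about VCAN.

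Among the 20 nearest measured coding genes, 10 on each side, 12 lay above 0 and 8 below, with a median log2 change of 0.046 against 0.65 for XRCC4 itself. Of these, 2 rose and none fell in limma, beside 4.74% of all genes in each direction. None was lower at an unadjusted p under 0.05. The 2 that rose were SSBP2 (1.26-fold) and, at the tenth place, ADGRV1, a dim reading that went from 4.39 to 5.25. Both were chosen after their values were seen. The count of rises was 1 without any 1 of the 6 arrays or without the dimmest 25% of genes. That filter leaves 13 of the 20 neighbours, and one at 50% leaves 10, so the median rests in part on dim genes.

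On chromosome 6, the nearest measured coding gene on each side of MDC1 was also higher in knockout cells. Genes without a named probe set may lie between them. NRM, which encodes the inner nuclear membrane protein nurim, measured 7.47, 7.67 and 7.51 in control and 8.33, 8.25 and 8.38 in knockout arrays, a 1.71-fold rise (limma, adjusted p = 0.00133). FLOT1, which encodes the membrane scaffold flotillin 1, measured 9.16, 9.33 and 9.08 in control and 9.86, 9.96 and 10.03 in knockout arrays, a 1.69-fold rise (limma, adjusted p = 0.00211). The groups did not overlap for either gene, and both calls held without any 1 array. The 4 probe sets of FLOT1 changed by 0.64 to 0.80 on the log2 scale.

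Of the 20 nearest measured coding genes of MDC1, 5 rose and 2 fell, beside 4.74% of all genes in each direction. The median log2 change of the 20 was 0.19. On the side of NRM, 9 of 10 genes lay above 0 with a median of 0.31, and 4 of them rose. On the side of FLOT1, 5 of 10 lay above 0 with a median of 0.011. The further rises were RPP21 (1.5-fold), MRPS18B (1.35-fold) and PRR3 (1.31-fold), and the falls were the stress-response gene IER3 (1.34-fold lower) and the mucin gene MUC22 (1.54-fold lower), all chosen after their values were seen. The 5 rises became 3 on leaving out control replicate 1, 2 on leaving out control replicate 3 and 10 without the dimmest 50% of genes. Under that filter 1031 of 7442 genes rose, against 706 of 14884 without it. The filter also removes dim neighbours of MDC1, so these 10 rises are out of fewer than 20 genes. The falls were 1 on leaving out control replicate 1 or 3 or either of knockout replicates 2 and 3. Whether the position of MDC1 has a part in its rise was not tested.

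**Figure D2:**
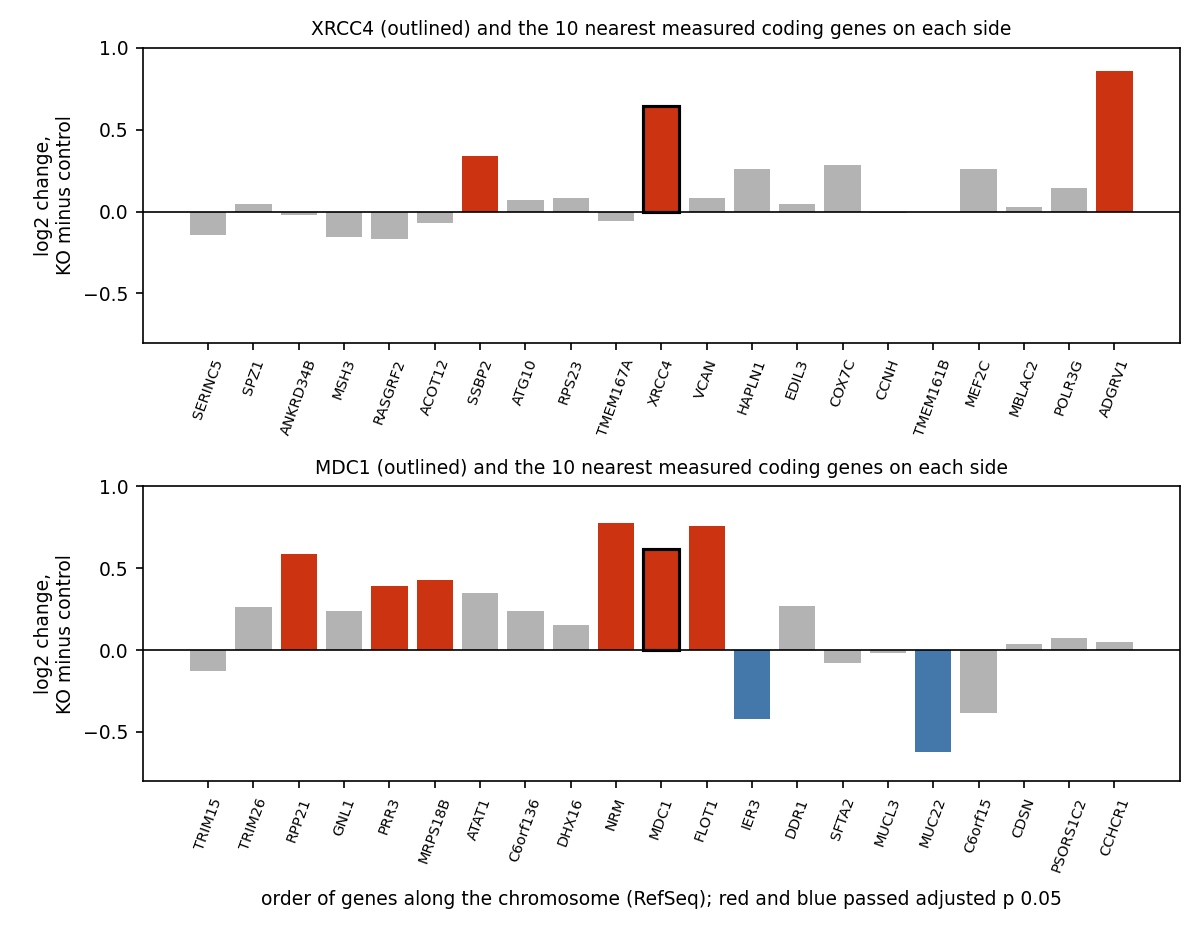
Log2 change (NR1D1 KO minus control) of XRCC4, of MDC1 and of the 10 nearest measured protein-coding genes on each side, in chromosome order; red bars rose and blue bars fell at a limma adjusted p of 0.05, grey bars did not pass. Among the measured genes, XRCC4 lies between TMEM167A and VCAN, both grey, while MDC1 lies between NRM and FLOT1, both red.

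The neighbourhoods of the other 4 genes had medians of 0.042 for XRCC5, 0.0051 for XRCC6, 0.16 for DCLRE1C and 0.013 for TP53BP1 on the log2 scale of change. For XRCC6 and TP53BP1 the median fell below 0 with 5 neighbours on each side (-0.043 and -0.032). The set around DCLRE1C held 5 rises and no fall in limma among 20 genes, beside 4.74% of all genes in each direction. In that set 1 gene was lower at an unadjusted p under 0.05, and DCLRE1C itself, at 0.20, was close to the median of the set. Those 5 rises were 1 on leaving out control replicate 1 or knockout replicate 2, 2 on leaving out control replicate 2 or 3 or knockout replicate 3, and 3 on leaving out knockout replicate 1.

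Most other genes of break repair did not pass the test, which also held for 13472 of all 14884 genes. Across 4 lists of related factors, 34 of 60 genes had a named probe set, and 3 of them rose, 1 fell and 30 did not pass. The median log2 change of the 34 was 0.030. The share that rose was 8.82%, beside 4.74% of all genes. At an unadjusted p under 0.05, 12 of the 34 were higher and 3 lower, beside 1771 and 1620 of all 14884 genes. On leaving out control replicate 1 or 3, or knockout replicate 2, the 4 calls became 2, with 1 rise and 1 fall each time. The number of calls was higher under settings that test fewer genes or weight the spread differently. It was 8 of 34 and 11 of 30 without the dimmest 25% and 50% of genes. It was 9 of 34 with a trend and robust prior and 7 of 34 with array weights. Calls over all genes also grew under these settings, from 1412 of 14884 to 1771 of 11163, 1887 of 7442, 1953 of 14884 and 1546 of 14884.

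Among accessory and end-processing factors, 5 of 14 were measured. Of these 5, 1 rose and 0 fell in limma, beside 4.74% of all genes in each direction. At an unadjusted p under 0.05, 2 were higher and 1 lower, beside 1771 and 1620 of all 14884 genes. TDP1, which clears topoisomerase 1 adducts from DNA ends, measured 6.92, 6.87 and 6.86 in control and 7.28, 7.24 and 7.18 in knockout arrays, or 1.27-fold higher (limma, adjusted p = 0.0265). Only leaving out knockout replicate 3 kept the call (0.0479). Adjusted p was 0.0688, 0.0849 and 0.1 on leaving out control replicates 1, 2 and 3 in turn, and 0.063 and 0.0792 on leaving out knockout replicates 1 and 2. The list had a median log2 change of -0.037.

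Of 23 genes of break sensing and ubiquitin signalling, 16 were measured. At an unadjusted p under 0.05, 4 were higher and 2 lower, beside 1771 and 1620 of all 14884 genes. After adjustment none rose and 1 fell in limma. That gene was NBN, whose product, nibrin, joins MRE11 and RAD50 in the complex that senses breaks and activates the kinase ATM. NBN measured 8.72, 8.81 and 8.69 in control and 8.14, 8.07 and 8.17 in knockout arrays, 1.53-fold lower (limma, adjusted p = 0.00249), and the call held without any 1 array. On chromosome 8, 15 of the 20 nearest measured coding genes of NBN also lay below 0, with a median log2 change of -0.28 over the 20. Of these genes 6 fell, beside 4.74% of all genes. Without the dimmest 25% or 50% of genes 10 fell, beside 854 of 11163 and 856 of 7442 genes. These filters also remove dim neighbours of NBN, so the 10 falls are out of fewer than 20 genes. The complex partners of NBN did not pass the test. MRE11 went from 8.01 ± 0.132 to 8.30 ± 0.0551 and RAD50 from 9.35 ± 0.133 to 9.33 ± 0.0168 (SD, n = 3 each), with limma adjusted p of 0.097 and 0.928. The median of the list was 0.022.

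None of 8 measured partners, effectors and inhibitors of TP53BP1, of 13 listed, passed the limma test. At an unadjusted p under 0.05, 3 were higher and 0 lower, beside 1771 and 1620 of all 14884 genes. TRIP13 and PAXIP1 had the smallest unadjusted p in limma (0.00507 and 0.022). TRIP13, an ATPase that dismantles complexes of the shieldin partner MAD2L2, measured 7.50, 7.79 and 7.50 in control and 7.86, 8.25 and 8.12 in knockout arrays. The groups did not overlap, and the difference of 0.48 had a limma adjusted p of 0.0521. It passed without control replicate 2 (0.0461) or knockout replicate 1 (0.0335), and with all arrays without the dimmest 25% (0.027) or 50% of genes (0.0142), with a trend and robust prior (0.0171) and with array weights (0.0246). PAXIP1, whose product PTIP binds TP53BP1, differed by 0.25 (limma, adjusted p = 0.133), and RIF1, the other main effector of TP53BP1, by -0.054 (adjusted p = 0.749).

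Of 10 genes of end resection and alternative joining, which compete with or replace classical end joining, 5 were measured. Of these 5, 2 rose and 0 fell in limma, beside 4.74% of all genes in each direction. EXO1, the resection exonuclease gene, measured 7.28, 7.43 and 7.23 in control and 7.84, 7.87 and 7.73 in knockout arrays, 1.42-fold higher (limma, adjusted p = 0.0102). BARD1, the partner of BRCA1, was also 1.42-fold higher (adjusted p = 0.0261). EXO1 kept its call without any 1 array, and BARD1 lost it without any array other than knockout replicate 3, with adjusted p of 0.051 to 0.084. The median of the list was 0.27.

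**Figure D3:**
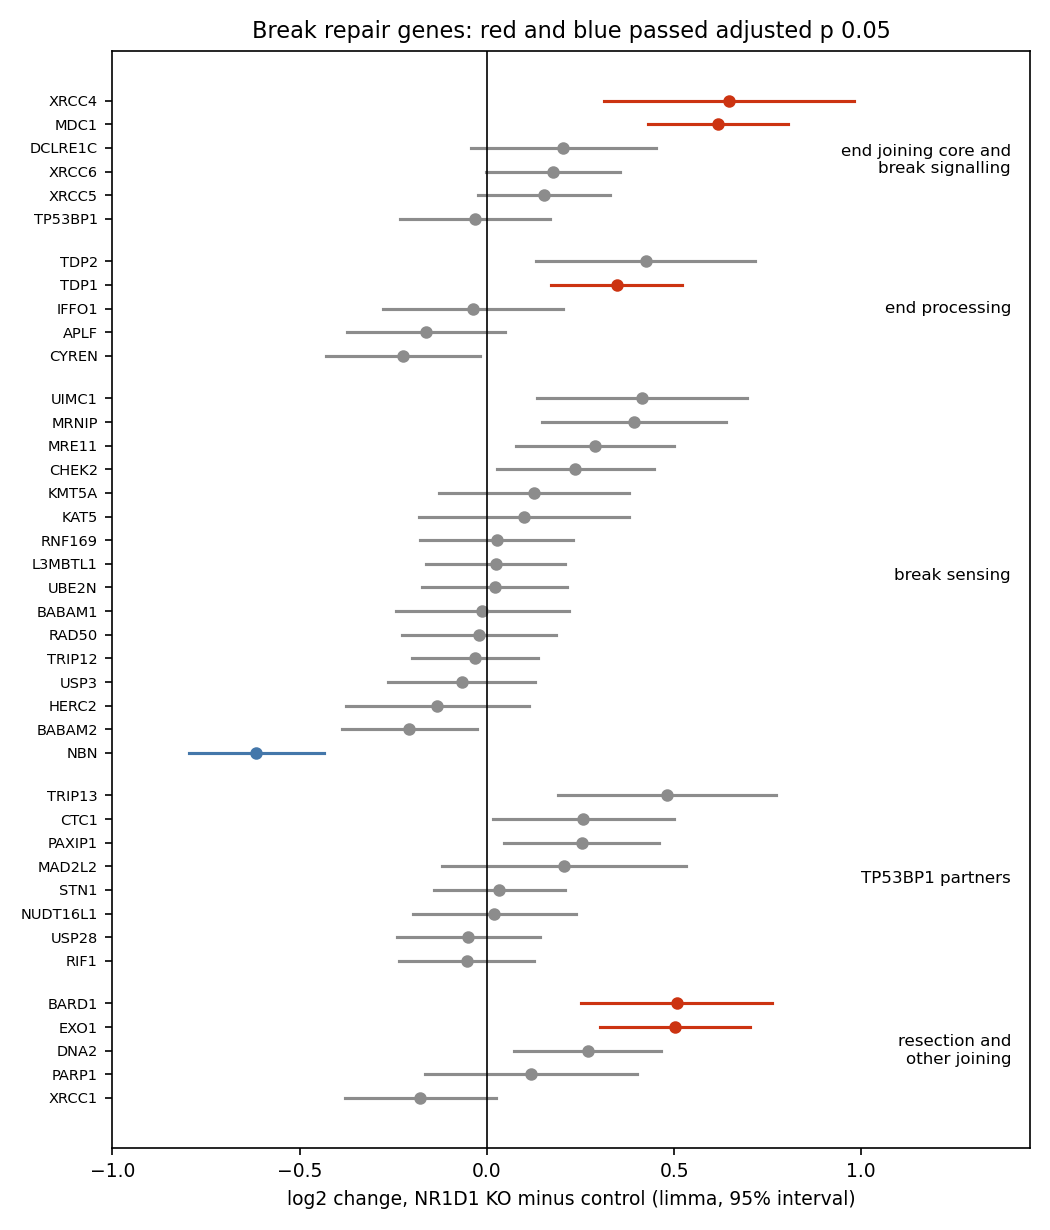
Log2 change (NR1D1 KO minus control) with its 95% interval from limma for the 6 measured end joining and break signalling genes and 34 further repair genes, by list. Red genes rose and blue fell at an adjusted p of 0.05; XRCC4, MDC1, TDP1, EXO1 and BARD1 are red, NBN is blue and the others grey.

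Cell cycle genes moved with the knockout as well, and many repair genes are known to be transcribed more in dividing cells. Of 26 measured genes of S, G2 and M phase, 15 rose (57.7%) and none fell in limma, beside 4.74% of all genes in each direction. The median log2 change of the 26 was 0.36. At an unadjusted p under 0.05, 23 were higher and 0 lower, beside 1771 and 1620 of all 14884 genes. GINS2 of the replicative helicase was 2.03-fold higher, TYMS, which supplies thymidylate, 1.52-fold, and MCM3 and MCM4, also of the helicase, 1.5-fold and 1.44-fold. The mitotic genes KIF20A, CCNB2, CDC20 and PLK1 were 1.72-fold, 1.5-fold, 1.48-fold and 1.44-fold higher. Averaged over 15 S phase genes, the log2 level was 8.32 to 8.41 in control and 8.65 to 8.80 in knockout arrays, and over 11 G2 and M phase genes it was 9.03 to 9.16 and 9.44 to 9.54. Of the 3 knockout arrays, replicate 1 was lowest for both list means and for XRCC4 and highest for MDC1 at its brightest probe set. At some other probe sets of MDC1 knockout replicate 2 was highest, for example at 8.944 against 8.931 in replicate 1. These are ranks among 3 arrays, given without a test. The part of these levels in the rises of XRCC4 and MDC1 was not tested. On leaving out control replicate 1 or 3, or knockout replicate 2, the 15 rises became 8. TYMS lost its call on leaving out control replicate 1 or 3 or either of knockout replicates 2 and 3 (limma adjusted p of 0.0635 to 0.078), and so did CCNB2 (0.0891 to 0.102), while the other 6 of these 8 genes kept theirs without any 1 array.

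The 6 arrays covered 53617 probe sets, and none was named for NR1D1, so its transcript gives no check of the knockout. Of genes known in MDA-MB-231, VIM, CD44, AXL, ZEB1, SNAI2 and EGFR had means of 8.05 to 11.93. VIM rose from 9.01 to 9.35 (limma, adjusted p = 0.0337), CD44 fell from 9.86 to 9.51 (limma, adjusted p = 0.0324) and the other 4 did not pass. The hormone receptor genes ESR1 and PGR, which this line is known to lack, read 5.19 and 4.02. Of the other luminal epithelial markers measured, FOXA1 read 5.05 in control and 4.96 in knockout arrays, GATA3 fell from 7.48 to 6.75 (limma, adjusted p = 0.00166) and EPCAM rose from 7.22 to 7.62 (limma, adjusted p = 0.0286). Averaged levels of 3 leukocyte markers were 6.59 to 6.72 in control and 6.33 to 6.58 in knockout arrays, with CD68, a lysosomal gene that other cells express too, falling from 10.87 to 10.42 (limma, adjusted p = 0.0167) and CD14 and LYZ between 4.20 and 4.95. Those of 2 fibroblast markers were 3.88 to 3.97 and 3.81 to 4.16, and those of 3 endothelial markers 5.36 to 5.46 and 5.37 to 5.60, where KDR rose 1.42-fold (limma, adjusted p = 0.00628). The part of these marker levels in the rises of XRCC4 and MDC1 was not tested.

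**Figure D4:**
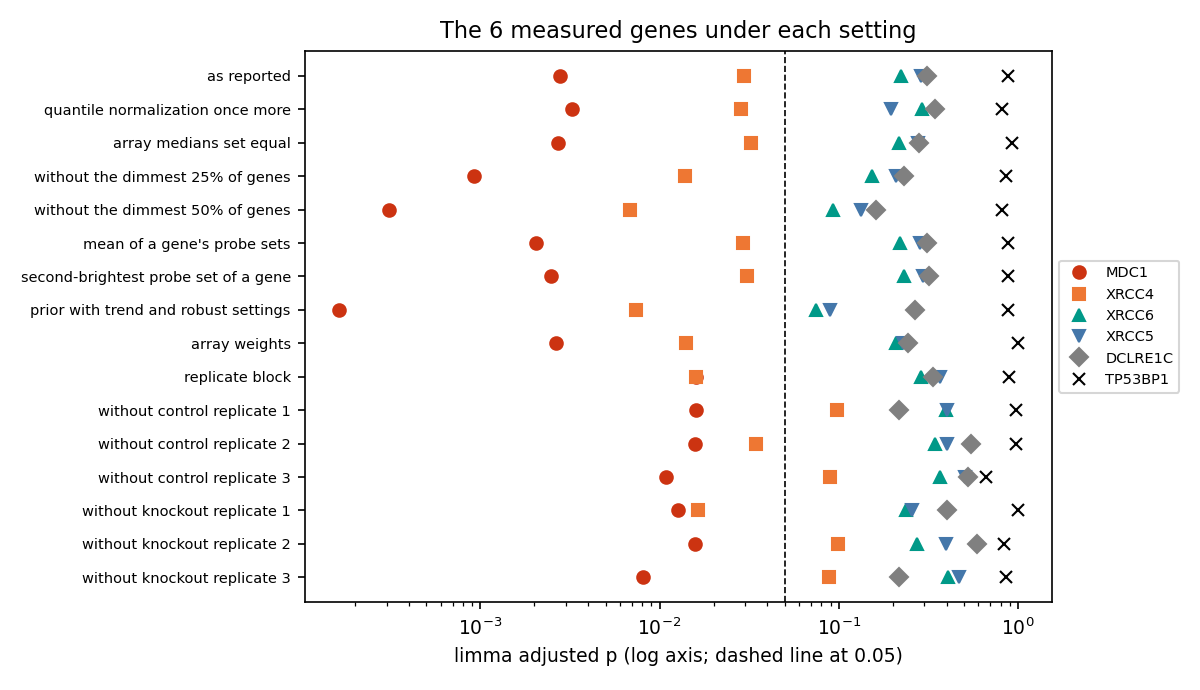
Limma adjusted p (log axis) of the 6 measured genes under the reported fit and 15 alternatives, with the threshold of 0.05 as a dashed line. MDC1 lies left of the line throughout, XRCC4 crosses it on leaving out some single arrays, and the other 4 genes stay to the right.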

How the data were processed

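Per the labels' protocols, total RNA was amplified with a whole-transcript kit, biotin-labelled and hybridised to GeneChip arrays. The deposited values are taken to be log2 probe set summaries, normalized by the authors, because they span a log-like range with shared quantiles. How they were normalized and summarized is not given in the sources used here. Of 53617 probe sets, 16098 had 1 gene symbol, 0 had several and 37519 had none in the platform annotation table. All 16098 matched RefSeq by gene identifier. The brightest probe set stood for a gene (779 genes had several). Groups came from the titles. The test of knockout against control was the two-sided one of limma 3.58.1 (lmFit, eBayes; R 4.3.3) over 14884 genes, with Benjamini-Hochberg adjustment over all of them and a threshold of 0.05, and without a low-level filter. The fit was tested on simulated data, where it called 41.4% of log2 changes of 0.5, 83.6% of 1 and 98.8% of 2. Each simulated run changed far fewer genes than the 1412 that passed here, which makes the adjusted threshold stricter in the simulation. These shares therefore do not give the share of real changes that the test found. A gene that did not pass may still differ. Partner pairs were compared by exact permutation.

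Genes and lists were chosen with earlier results of these data known, and motifs with the sequences in view. All 6 measured genes are named, with up to 4 called genes of each other list (up to 2 by p where none was) and the nearest measured coding genes of XRCC4 and MDC1. Other genes were named after their values were seen, to identify called neighbours or to complete a complex. Gene order and the start sites of 5 of the 6 genes came from RefSeq GRCh38.p14. Replicate numbers were not used as a block. Alternatives were another quantile normalization, equal medians, filters on dim genes, other probe set rules, a trend and robust prior, array weights, the block and leaving out each array. The number of arrays limits the precision. Figures used matplotlib 3.10.9 in Python 3.11.15.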

Additional observations from a re-analysis of the deposited data

How the results depend on the processing

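Over all genes 1412 passed, and 723 to 1049 on leaving out 1 array. The 2 calls among the 6 genes were unchanged under the 9 alternatives that keep all arrays. Leaving out 1 array gave 1 to 2 calls, MDC1 always among them. For the other repair genes leaving out 1 array gave 2 to 5 calls against 4. Without the dimmest 25% and 50% of genes 8 and 11 were called, with a trend and robust prior 9 and with array weights 7. Over all genes these settings called 1771 of 11163, 1887 of 7442, 1953 of 14884 and 1546 of 14884. For the 26 cell cycle genes leaving out 1 array gave 8 to 14 calls against 15. With 5 neighbours on each side, the median neighbour change was -0.043 for XRCC6, -0.032 for TP53BP1 and 0.25 for MDC1. Values that turned sign were those of TP53BP1 (-0.094 to 0.0086 over left-out arrays, 0.0012 with array weights), TMEM167A (-0.14 to 0.014 over left-out arrays) and VCAN (-0.086 for the mean of its probe sets, -0.26 for the second-brightest). Another scaling moved the median of all genes by at most 0.0096.

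With the replicate number as a block, 2 of the 6 genes, 4 other repair genes and 12 cell cycle genes were called. TDP1 lost its call (adjusted p = 0.0618) and TRIP13 gained one (0.0331). Over all genes, the deviations of same-numbered arrays correlated at 0.055, 0.068 and -0.11. These values give no sign of pairing by number, but 3 arrays a group cannot exclude it. The 4 genes without a named probe set, and dim genes near the floor of the array, limit what the set can show.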
